A study of Drosophila melanogaster with 2 samples.

Results

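The 10 genes described here are the main regulators of the larval response to the steroid hormone ecdysone: EcR, usp, br, Eip74EF, Eip75B, Eip78C, Hr3, ftz-f1, Eip93F and Sox14. They were chosen by symbol from 13981 protein-coding genes. For each gene, all binding summits of the transcription factor Mio from 2 kb before the gene to its end were collected, together with the strongest summit within 500 bp of each transcription start site (TSS). The data are chromatin immunoprecipitation sequencing (ChIP-seq) of Mio, also called Mondo, in whole larvae of Drosophila melanogaster. There was 1 group: wandering third-instar larvae, males and females pooled, of a transgenic line that makes Mio with green fluorescent protein at its C-terminal end. Sonicated chromatin was pulled down through the tag with an anti-GFP antibody in 2 biological replicates, numbered 5 and 1. The sources used here do not give the promoter that drives the fusion or the state of the native Mondo gene. Tissues cannot be told apart in whole larvae, and there was no second stage, diet or hormone treatment, so every comparison is between genes, positions or replicates, with no test over conditions.

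Ecdysone acts through a nuclear receptor made of EcR and its partner usp. At the end of larval life a pulse of the hormone lets this receptor switch on a small set of early genes (br, Eip74EF, Eip75B and others), whose products are themselves transcription factors that switch on later genes and, in part, turn the early genes off again. Many of these regulators are long genes with several promoters, and different promoters give different protein isoforms that are made at different times. Mondo is a transcription factor of the basic helix-loop-helix class that works with Mlx in the response to dietary sugar, and the pair is known to bind the E-box CACGTG.

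Peaks were read from 4 deposited lists. The optimal list, kept by the authors for reproducibility between replicates, held 1146 peaks, of which 1117 were nuclear, and its weakest peak had a signal of 73.6. The relaxed lists, which include background by design, held 28423 peaks for the pooled data, 29999 for replicate 5 and 30000 for replicate 1. Signal is the authors' own value per peak on a scale that the sources used here do not give, and rank 1 is the strongest peak of a list. The same control, not analysed here, was used for peak calling in both replicates, so its errors are shared, and read depth is unknown for each library.

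Mio was found at most of these genes, and mostly inside them. An optimal summit lay between 2 kb before the gene and its end in 6 of the 10 regulators (Sox14, EcR, br, Eip74EF, Eip75B and Eip78C), against 9.56% of all protein-coding genes. These genes are long: the median stretch searched was 57.7 kb for the regulators and 4.16 kb for all genes. Among genes with at least 30 kb searched, 5 of the 8 regulators of that length held an optimal summit, against 24.5% of all 723 such genes. At promoters the count was lower. An optimal summit within 500 bp of a TSS was present at 3 of 10 regulators (Sox14, br and Eip75B), against 6.17% of all genes, and any pooled relaxed summit at 10 of 10, against 47.5%. Over genes, the median signal of the strongest pooled promoter summit was 51.3 in the 10 regulators and 32.4 in all genes with one, but the regulators have 36 promoters among them. Over single promoters with a pooled summit, the median was 36 for the 30 of the regulators and 31 for the 8958 of all genes.

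The 12 optimal summits over the 564.6 kb searched correspond to 0.213 per 10 kb, against 0.0567 per 10 kb in all genes of at least 30 kb and 0.0834 over the chromosome arms. Introns held 10 of the 12 (83.3%), the 5' UTR of an Eip75B transcript held 1, and 1 lay before Sox14. The intron share was similar in the relaxed lists of these genes, 79.9% pooled, 81.9% in replicate 5 and 83.6% in replicate 1. The share of the searched sequence that is intron was not computed, so the intron count shows no preference for introns. Within 500 bp of a TSS of their own gene lay 4 of the 12 (33.3%), against 29% of the 272 pairs of a long gene and an optimal summit in it. The sets differ, since the 4 include the Sox14 summit, and Sox14 is not among the genes of at least 30 kb. No other gene had a TSS within 500 bp of any of the 12. Eip75B held 4 of the summits and Eip74EF 3, while 17 of all protein-coding genes held at least 4 and 55 at least 3. Among the 723 genes with at least 30 kb searched, 5 held at least 4 and 23 at least 3.

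**Figure D1:**
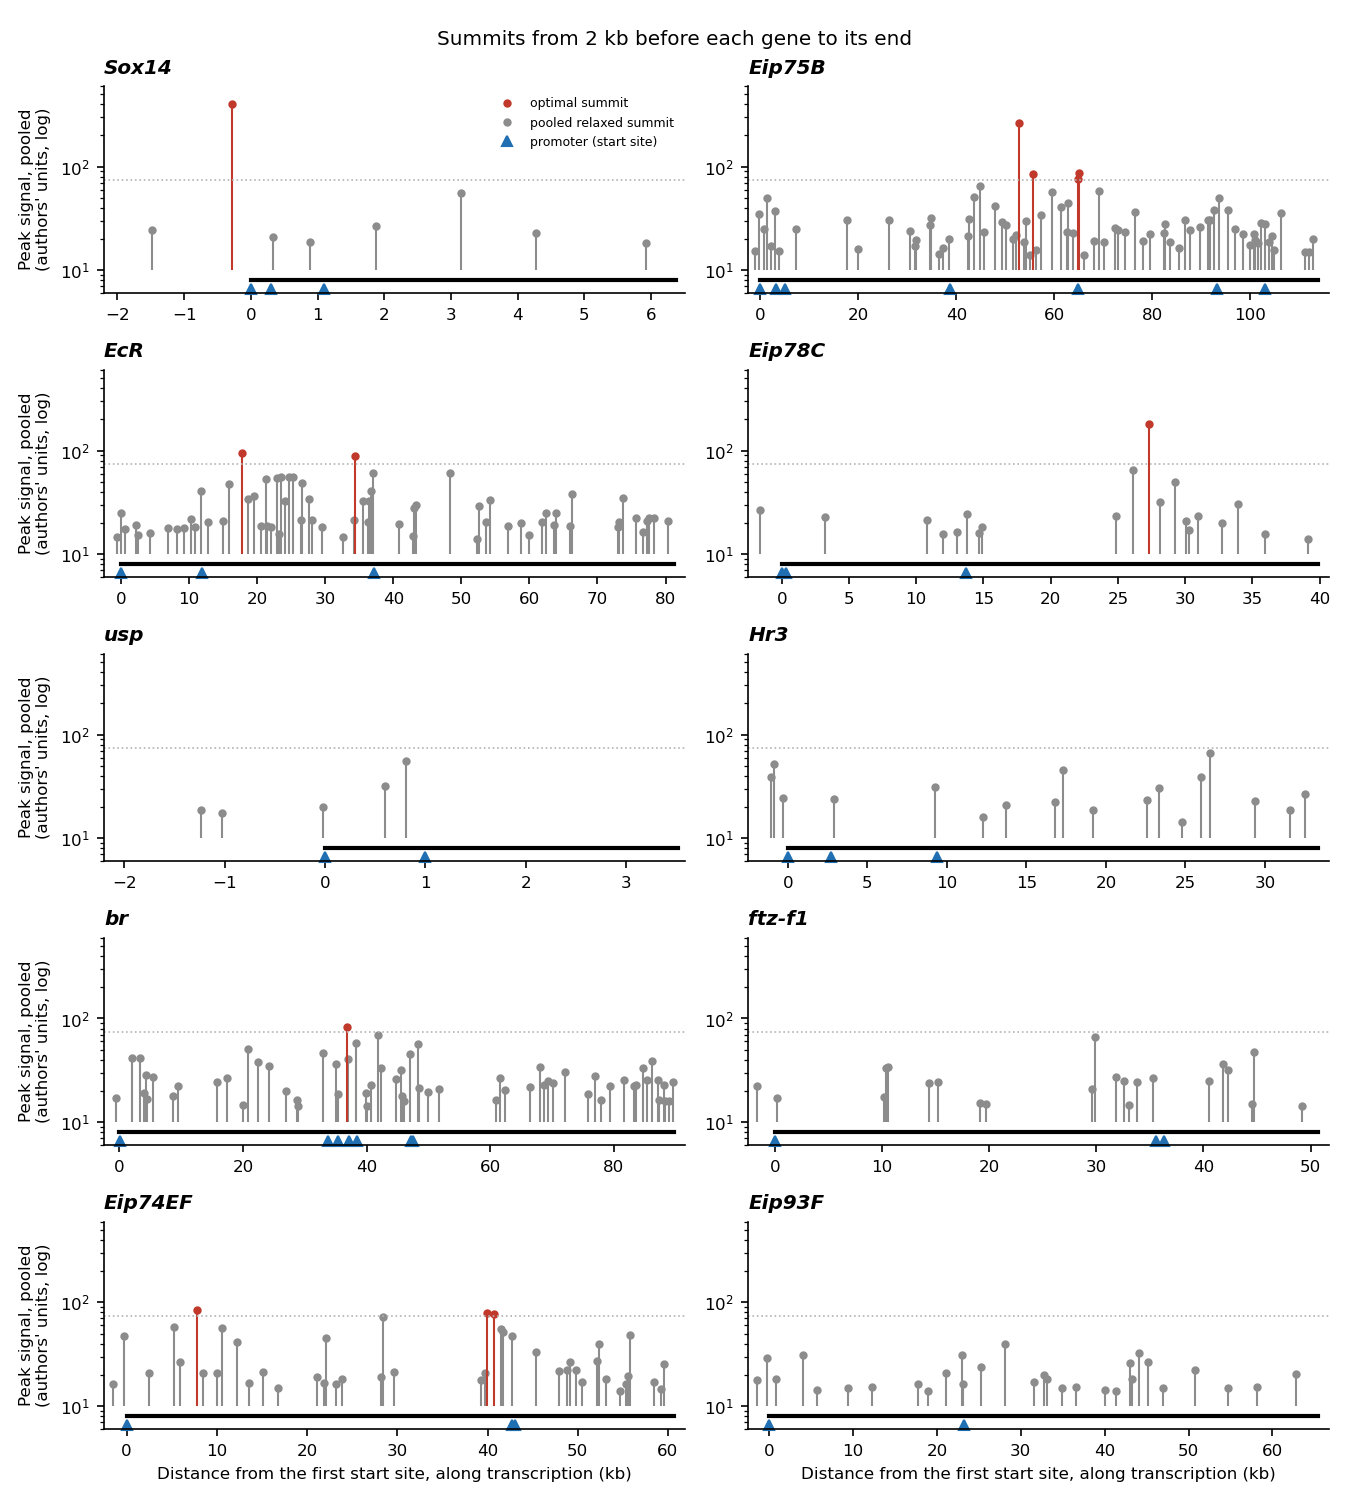
Signal of every pooled relaxed summit (grey) and optimal summit (red) on a log axis against distance from the first TSS in the direction of transcription, for each of the 10 genes. Black bars are the genes, triangles their promoters, and the dotted line is the lowest optimal signal, 73.6. Red summits lie in 6 genes, and usp, Hr3, ftz-f1 and Eip93F have none.

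EcR, which encodes the hormone-binding subunit of the receptor, lies on 2R (6087873 to 6169087 in dm6, minus strand). Both of its optimal summits were in introns between its promoters, and none was at a TSS. The summit at 6151295 had a signal of 94.84 in the pooled data, with 41 in replicate 5 (rank 1734) and 49.49 in replicate 1 (rank 430). It lay 5834 bp downstream of the start of EcR-RD and EcR-RE. The other, at 6134659, lay at −2737 bp from the start shared by EcR-RB and EcR-RC (negative is upstream) and had 88.09 in the pooled data, 49.03 in replicate 5 (rank 1111) and 34.11 in replicate 1 (rank 944). The summit near EcR-RD and EcR-RE was thus the higher in replicate 1, and the summit near EcR-RB and EcR-RC the higher in replicate 5.

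The 3 EcR promoters differed in pooled signal. Here and below, a promoter's value is that of the strongest summit within 500 bp in each list, which need not be the same peak in each. The EcR-RB, EcR-RC and EcR-RG start, from which the EcR-B isoforms are made, had 60.16 in the pooled data, 41.39 in replicate 5 and 22.1 in replicate 1. The EcR-RD and EcR-RE start had 40.89 in the pooled data, 33.84 in replicate 5 and 10.56 in replicate 1. The start of EcR-RA, the most upstream, had 25.16 in the pooled data, 27.18 in replicate 5 and 15.92 in replicate 1. The order from internal to distal promoter held in the pooled list and in replicate 5, whereas in replicate 1 the middle promoter was the lowest. Relaxed summits were dense between the middle and the internal promoter, a stretch of 25.2 kb, with 29 in the pooled list, 30 in replicate 5 and 24 in replicate 1. These 29 correspond to 11.5 per 10 kb, against 6.13 per 10 kb from the internal promoter to the end of the gene. Some of the 29 had the start of a tRNA gene within 500 bp, among them those at 6142448 (48.6) and 6153197 (47.66).

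The gene of the partner subunit, usp, is short (X, 2038798 to 2042311, minus strand) and had no optimal summit. Its strongest pooled summit, 55.21, lay in the 5' UTR of usp-RB at −193 bp from the start of usp-RA. Replicate 1 had a summit of 26.78 there (rank 1550), and replicate 5 had its strongest summit near that start at −338 bp, with 27.94 (rank 4280). The usp-RB start had 20.2 in the pooled data and 23.53 in replicate 5, and no summit within 500 bp in replicate 1. The gene Actn overlaps the first of these positions and CG4313 the second, so neither can be assigned to usp alone.

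Of the early genes, br encodes a family of zinc finger proteins needed for the larva to become a pupa (X, 1575132 to 1664869, plus strand). Its optimal summit (1611776 to 1612135, signal 82.27, rank 889) lay at −352 bp from the start of br-RP, in a promoter shared by 9 of its 16 transcripts. Replicate 5 had a summit of 68.05 (rank 470) 79 bp away. Replicate 1 had none within 100 bp; its strongest summit at this promoter was 23.65 (rank 2000), at −453 bp. This was the 1 summit of the 12 without a match in both replicates. The br-RI promoter showed the opposite order, with 33.42 in replicate 1 (rank 985) and 23.07 in replicate 5 (rank 6505). The remaining br promoters were lower: the shared summit of br-RS and br-RM had 45.36 in the pooled data, br-RC had 36.61, and the distal br-RN and br-RO start and br-RH had no pooled summit within 500 bp. The gene Mur2B overlaps the optimal summit, so that summit cannot be assigned to br alone.

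Both genes on X, br and usp, had more relaxed summits in replicate 5 than in replicate 1, 86 and 40, while the 8 autosomal regulators had 318 and 210. Over the whole lists, X held 22.4% of the peaks of replicate 5 and 12.5% of those of replicate 1. The part of this difference in the unmatched br summit was not tested.

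Eip74EF encodes an ETS-domain factor (3L, 17558672 to 17619325, minus strand). Its 3 optimal summits were intronic in Eip74EF-RA, Eip74EF-RC and Eip74EF-RE, and at each the ratio of replicate 5 to replicate 1 signal was above the median of 1.43 over all matched nuclear optimal peaks. The summit at 17611546, in the first intron of these transcripts, 7779 bp downstream of their start, had 85.33 in the pooled data, 68.18 in replicate 5 (rank 466) and 15.89 in replicate 1 (rank 5192). Its ratio of 4.29 between replicate 5 and replicate 1 stood at place 36 from the top among 1025 matched nuclear optimal peaks. The summits at 17578616 and 17579370 formed a pair upstream of the internal Eip74EF-RB start, at −1990 and −2744 bp. The nearer had 78.05 in the pooled data, 54.74 in replicate 5 (rank 823) and 29.2 in replicate 1 (rank 1283). The farther had 79.58 in the pooled data, 46.15 in replicate 5 (rank 1283) and 20.67 in replicate 1 (rank 2707). None of the 3 was among the 1146 strongest peaks of replicate 1. The promoters themselves had no optimal summit: the distal start had 47.39 in the pooled data and 44.08 in replicate 5, with none in replicate 1, and the Eip74EF-RB start had 47.01 in the pooled data, 38.1 in replicate 5 and 24.22 in replicate 1.

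Eip75B encodes a nuclear receptor that binds haem and represses Hr3 activity (3L, 17950953 to 18064696, minus strand). It is the longest of the 10 genes and had 4 optimal summits, all among the 1146 strongest peaks of both replicates. The strongest (18011804 to 18012023, rank 76 of all and 52 of nuclear peaks) had a signal of 261.9 in the pooled data, with 139.9 in replicate 5 (rank 96) and 122.9 in replicate 1 (rank 61). It lay in an intron of 4 of the 7 transcripts, at −12086 bp from the start of Eip75B-RC, with a weaker summit at −9335 bp (84.11 in the pooled data, 48.49 in replicate 5 and 34.56 in replicate 1). The other pair flanked the Eip75B-RC start itself. The summit just downstream, in the 5' UTR at 17999706, had 87.6 in the pooled data, 51.21 in replicate 5 (rank 987) and 40.36 in replicate 1 (rank 683), and the summit at −87 bp had 76.85 in the pooled data, 48.78 in replicate 5 (rank 1124) and 35.89 in replicate 1 (rank 851). The peak intervals of this pair overlap. Each of these 4 summits ranked higher in replicate 1 than in replicate 5, and the ratios of replicate 5 to replicate 1 signal, 1.14 to 1.4, were below that median of 1.43.

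The other 6 Eip75B promoters had no optimal summit. Eip75B-RA had 50.34 in the pooled data, 29.49 in replicate 5 and 14.29 in replicate 1. Eip75B-RE had 37.11, Eip75B-RF 35.32, Eip75B-RD 28.18 and Eip75B-RG 20.02 in the pooled data, and Eip75B-RB had no summit within 500 bp in any of the lists. The 33.6 kb between the Eip75B-RB and Eip75B-RG starts held 3.58 pooled summits per 10 kb, against 8.77 per 10 kb in the 26.2 kb from Eip75B-RG to Eip75B-RC, where 3 of the 4 optimal summits lay.

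Eip78C encodes a nuclear receptor related to the product of Eip75B (3L, 21226609 to 21266503, plus strand). It had 1 optimal summit (21253860 to 21254022, signal 179.8, rank 169), in an intron of all 4 transcripts and 13561 bp downstream of the Eip78C-RB start. Replicate 5 had 107.2 there (rank 166) and replicate 1 had 77.08 (rank 177). Its promoters were weak by comparison. Eip78C-RB had 24.6 in the pooled data and 19.19 in replicate 5, with none in replicate 1, and the distal promoters of Eip78C-RA, Eip78C-RD and Eip78C-RE had no summit in any list.

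The bases under 8 of the 12 summits are printed to show what lies there, since none of them holds CACGTG. Each run is the 101 bases centred on an optimal summit, from the RefSeq Release 6 genome (dm6), 5' to 3' on the strand of the gene. Capitals mark words of the form CANNTG, the word GAGAG, the word ACAGTG or the word ACACTG on either strand, and runs with no capitals hold none of these.
Eip75B intron, strongest summit, chr3L:18011857-18011957, minus strand: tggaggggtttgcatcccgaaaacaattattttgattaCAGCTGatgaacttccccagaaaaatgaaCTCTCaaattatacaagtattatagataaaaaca
Eip75B intron, weaker summit, chr3L:18009106-18009206, minus strand: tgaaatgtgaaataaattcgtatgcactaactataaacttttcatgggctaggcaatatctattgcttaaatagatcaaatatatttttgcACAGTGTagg
Eip75B-RC promoter, chr3L:17999858-17999958, minus strand: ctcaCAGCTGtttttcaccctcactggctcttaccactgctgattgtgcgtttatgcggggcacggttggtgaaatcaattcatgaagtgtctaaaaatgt
Eip78C intron, chr3L:21253858-21253958, plus strand: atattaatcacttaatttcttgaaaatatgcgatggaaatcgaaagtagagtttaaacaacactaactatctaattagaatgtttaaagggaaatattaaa
Eip74EF intron, strongest summit, chr3L:17611496-17611596, minus strand: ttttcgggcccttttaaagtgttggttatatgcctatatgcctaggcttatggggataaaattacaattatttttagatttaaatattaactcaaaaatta
Eip74EF intron, farther summit of the pair, chr3L:17579320-17579420, minus strand: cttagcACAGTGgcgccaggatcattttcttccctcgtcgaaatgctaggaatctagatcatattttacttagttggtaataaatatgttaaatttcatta
Eip74EF intron, nearer summit of the pair, chr3L:17578566-17578666, minus strand: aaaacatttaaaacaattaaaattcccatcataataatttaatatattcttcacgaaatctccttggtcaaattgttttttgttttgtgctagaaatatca
br promoter, chrX:1611906-1612006, plus strand: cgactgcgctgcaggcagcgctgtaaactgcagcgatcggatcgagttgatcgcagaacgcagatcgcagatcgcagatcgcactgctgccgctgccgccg
The strongest Eip75B summit had CAGCTG just before the middle of the window and CTCTC, the reverse complement of GAGAG, after it. CAGCTG occurred again at the Eip75B-RC promoter. The weaker Eip75B intron summit held ACAGTG overlapping CAGTGT, the reverse complement of ACACTG. Of the 3 Eip74EF windows, 1 held ACAGTG and 2 held none of the marked words. The Eip78C window, 23.8% GC, and the br window, 63.4% GC, held none either.

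Counted over all 12 optimal summits, within 50 bp and on both strands, CACGTG was at 0 of 12 summits of the regulators, against 1.34% of all 1117 nuclear optimal summits and 1.23% of 28389 pooled nuclear summits. With 12 summits the 95% Wilson interval of a share of 0 reaches 24.2%, so these shares could not be told apart. Other CANNTG words were at 3 of 12 (25%, against 37.2% of nuclear optimal summits) and GAGAG at 2 of 12 (16.7%, against 14.4%). AGGTCA, the core word of nuclear receptor sites, was at 0 of 12 (against 2.15%), as were its inverted repeat with 1 base between the copies and at most 2 mismatches, the form bound by the ecdysone receptor (against 0.0895%), and TATCGATA (against 2.69%). ACAGTG was at 3 of 12 (25%, against 11.8%), ACACTG at 1 of 12 (8.33%, against 8.68%) and TTAAAA at 3 of 12 (25%, against 27%). The last 3 words were searched because earlier results of these data had shown them, and CACGTG was left out of the other CANNTG words. The mean GC content was 36.7% at the regulators' summits, with a range of 22.8 to 63.4%, and 37.7% at all nuclear optimal summits.

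Hr3, ftz-f1 and Eip93F act after the early genes. Hr3, a nuclear receptor that represses early genes and induces ftz-f1 (2R, 10203995 to 10237348, minus strand), had its strongest pooled summit at 10210818, in an intron, with 66.24 in the pooled data, 41.93 in replicate 5 (rank 1647) and 21.88 in replicate 1 (rank 2357). The genes CG12912 and CG46321 overlap that position. Its summit of 52.1 before the gene, at −864 bp from the start of Hr3-RD, had 44.39 in replicate 5, with no match in replicate 1. It lay inside Hdc, and TSSs of Hdc and lncRNA:CR45265 were within 500 bp, so it cannot be assigned to Hr3 alone. The Hr3 promoters had 24.11 to 31 in the pooled data.

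In ftz-f1, whose product, also a nuclear receptor, makes prepupal tissues able to respond to the next hormone pulse (3L, 18750607 to 18801309, minus strand), the replicates differed in order at the strongest summit. The intron summit at 18771472, at −5728 bp from the ftz-f1-RC and ftz-f1-RD start, had 66.22 in the pooled data, 18.44 in replicate 5 (rank 10091) and 44.44 in replicate 1 (rank 550). It was therefore inside the 1146 strongest peaks of replicate 1 and far below them in replicate 5. The 3 ftz-f1 promoters had 17.08 and 26.37 in the pooled data for ftz-f1-RB and for ftz-f1-RC with ftz-f1-RD, and ftz-f1-RA had no pooled summit.

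Eip93F encodes a factor of metamorphosis that is known to direct salivary gland death and adult development (3R, 21949114 to 22014539, plus strand). Its strongest pooled summit, in an intron at 21977286, had 39.76 in the pooled data, 14.43 in replicate 5 and 20.59 in replicate 1. The highest summit of the gene was the lowest among the 10 in the pooled list and in replicate 1, but in replicate 5 Eip93F had 32.05, above the 27.94 of usp. Its promoters had 31.18 (Eip93F-RA and Eip93F-RC) and 28.89 (Eip93F-RB) in the pooled data.

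Sox14, an ecdysone-induced HMG-box factor needed for neuron remodelling at metamorphosis, had the strongest summit of the 10 genes. Its gene is short (2R, 23978801 to 23985177, plus strand), and the peak (23978407 to 23978700) lay before it, with the summit at −276 bp from the start of Sox14-RC. The signal was 399.1 in the pooled data (rank 46 of all and 24 of nuclear peaks), 239.6 in replicate 5 (rank 42) and 165.9 in replicate 1 (rank 41). The ratio of 1.44 between the replicates was near the median of 1.43. The downstream promoters were far lower. Sox14-RA had 20.98 in the pooled data, 25.53 in replicate 5 and 28.43 in replicate 1. The replicate 5 summit counted there lay at −363 bp from the Sox14-RA start and nearer to that of Sox14-RC, at −65 bp. Sox14-RB had 18.73 in the pooled data and 17.56 in replicate 1, with no summit in replicate 5. A further summit of 56.13 lay in an intron, with 41.14 in replicate 5 and 12.54 in replicate 1. By distance in log10 signal over the 2 replicates, the promoters nearest to Sox14 among 4187 genes with a promoter peak in both were those of CHMP2B and Tcs5, which share a peak (227.2 in replicate 5 and 177.1 in replicate 1, distance 0.0367), and of CG8320 (210.7 and 156.3, distance 0.0616).

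**Figure D2:**
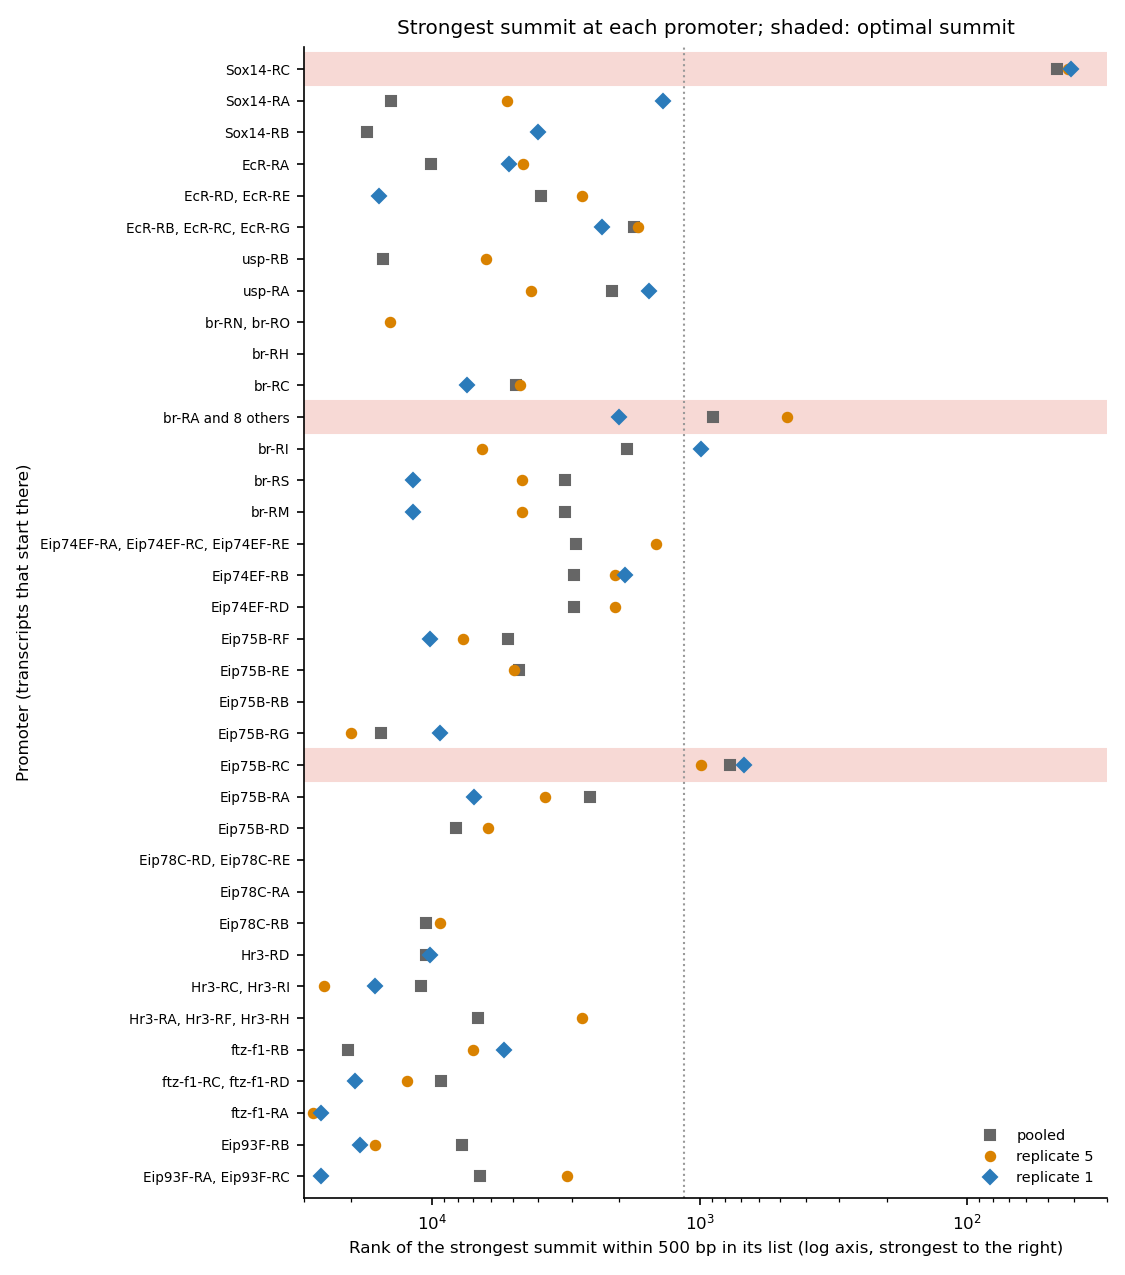
Rank (log axis, strongest to the right) of the strongest summit within 500 bp of each of the 36 promoters of the 10 genes, in the pooled list and in each replicate. A missing point means no summit, the shaded promoters have an optimal summit, and the dotted line marks rank 1146. Sox14-RC stands at ranks 46, 42 and 41, and every other promoter with a summit lies at rank 470 or weaker.

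Taking all 36 promoters, 3 had an optimal summit (8.33%, against 5.44% of 18958 promoters of all genes), and 30 had a pooled relaxed summit (83.3%, against 47.3%). In replicate 5, 30 promoters had a summit and in replicate 1, 24, but the shares over all promoters were not computed for these 2 lists. Neighbouring promoters could share a summit, as br-RS and br-RM did, and each was then counted. Each of the 3 promoters with an optimal summit was 1 of several of its gene. The optimal calls at Sox14-RC and Eip75B-RC held in the strongest peaks of each replicate, while replicate 1 had br at the br-RI promoter in place of the 9-transcript promoter.

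Of the 12 optimal summits, 11 were matched by a relaxed summit within 100 bp in both replicates, and 1025 of all 1117 nuclear optimal summits were (91.8%). Among the 1146 strongest peaks of both replicates were 7 of the 12, against 50.1% of nuclear optimal summits. Another 3 were there in replicate 5 only (the br summit and 2 at Eip74EF), 1 in replicate 1 only (EcR at 6151295), and 1 in neither (Eip74EF at 17579370). The ratio of replicate 5 to replicate 1 signal spread from 0.828 at EcR to 4.29 at Eip74EF over the 11 matched summits, and the 5th to 95th percentile over all 1025 matched peaks was 0.631 to 3.73.

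**Figure D3:**
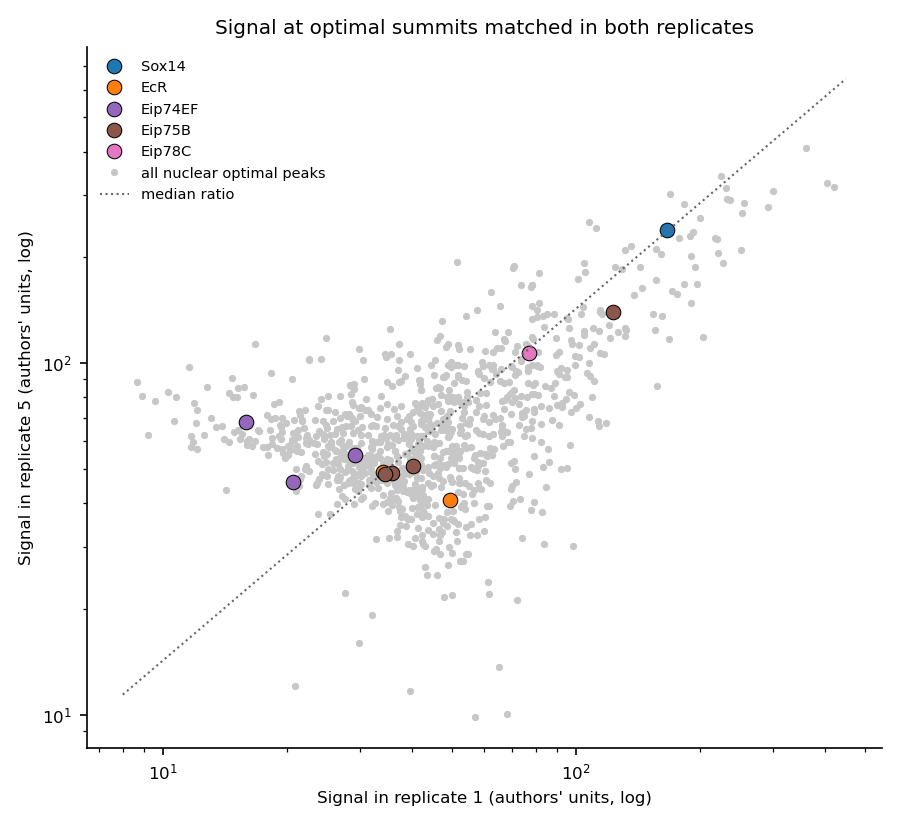
Signal in replicate 5 against signal in replicate 1 (both log axes, authors' units) at the 11 optimal summits of the regulators matched in both replicates (large points, coloured by gene) and at all 1025 matched nuclear optimal peaks (grey). The dotted line is the median ratio, 1.43; the Sox14, Eip78C and Eip75B summits lie near it, and the Eip74EF summits lie above it.

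Below the optimal list, the regulators were also dense in relaxed summits. The pooled list held 358 in the 564.6 kb searched (6.34 per 10 kb), against 1.95 per 10 kb in all genes of at least 30 kb and 2.12 over the arms. In replicate 5 there were 404 (7.16 per 10 kb, against 1.97 in long genes), and in replicate 1 there were 250 (4.43 per 10 kb, against 2.1). Of the 358 pooled summits, 79.9% were in introns, 8.38% in 3' UTRs, 3.35% in 5' UTRs, 3.07% in coding exons and 5.31% before the gene. The length of each of these parts was not computed, so the split shows no preference for any of them. The density was 8.17 per 10 kb in EcR, place 3 among the 723 long genes, 7.02 in Eip74EF (place 12), 6.91 in Eip75B (place 19) and 6.87 in br (place 20). These 4 genes lay above the 95th percentile of long genes, 5.97 per 10 kb. Hr3 had 5.09, Eip78C 4.77, Eip93F 4.45 and ftz-f1 4.17 per 10 kb, all above the long-gene median of 1.76. Relaxed lists contain background by design, and the signal of most of these summits was far below 73.6. Just below that value were a summit of 72.64 in Eip74EF at 17590890 (61.57 in replicate 5 and 13.44 in replicate 1) and a summit of 69.36 in br at 1617030 (63.3 in replicate 5 and 9.211 in replicate 1), and the lowest optimal summit of the regulators was the 76.85 of Eip75B. Both summits just below were stronger in replicate 5.

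**Figure D4:**
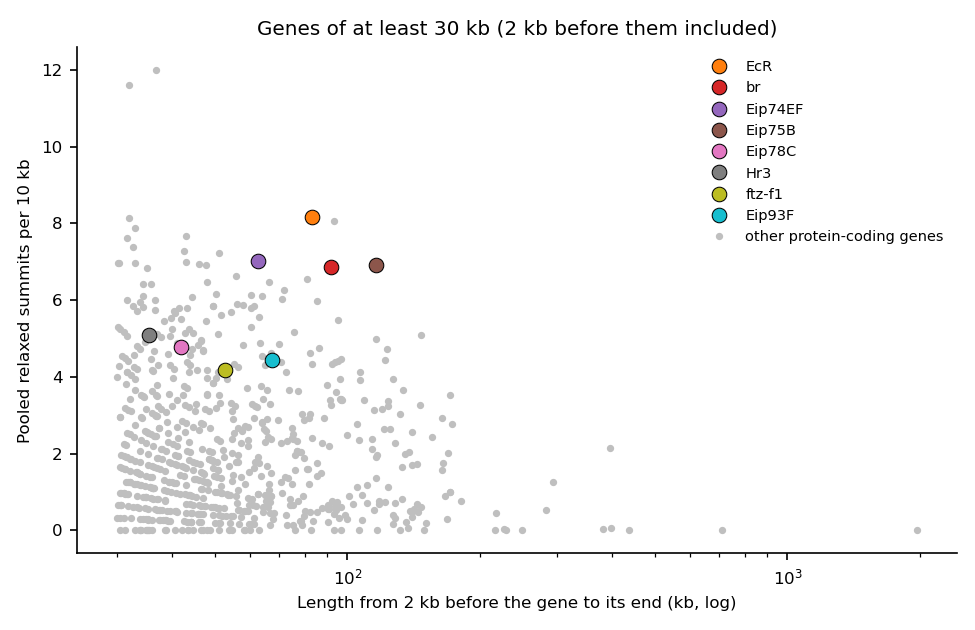
Pooled relaxed summits per 10 kb against the length searched (kb, log axis) for the 8 regulators of at least 30 kb (large points) and the other protein-coding genes of that length (grey). EcR, Eip74EF, Eip75B and br lie at 6.87 to 8.17 per 10 kb, and the other 4 regulators at 4.17 to 5.09.

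Other genes of the ecdysone pathway were counted in 4 lists. The list named ecdysone synthesis and uptake, which includes the Halloween enzymes, had an optimal promoter summit at 1 of 16 genes (6.25%). This was E23, an ABC transporter gene induced by ecdysone (113.7 in the optimal list, 65.67 in replicate 5 and 48.97 in replicate 1). No other matched gene of that list, and so none of its matched Halloween enzymes, had an optimal summit from 2 kb before the gene to its end. Other nuclear receptors and receptor cofactors had 2 of 19 (10.5%), the xenobiotic receptor gene Hr96 (108.9 in the optimal list, 74.62 in replicate 5 and 33.48 in replicate 1) and ERR, a regulator of carbohydrate metabolism (88.13 in the optimal list, 45.84 in replicate 5 and 37.39 in replicate 1). Further ecdysone-induced and prepupal genes had 1 of 22 (4.55%), Ldh, the lactate dehydrogenase gene once named ImpL3 (80.72 in the optimal list and 71.93 in replicate 5). Replicate 1 had no summit within 100 bp of it, and its strongest near a TSS of Ldh was another, of 13.6. Cell death genes of metamorphosis had 1 of 12 (8.33%), the death activator gene hid (94.09 in the optimal list and 56.55 in replicate 5). Again replicate 1 had no match within 100 bp, and its strongest summit near a TSS of hid had 43.28. Over all 69 genes, 5 had an optimal promoter summit (7.25%, against the 6.17% of all genes), and 15 had an optimal summit between 2 kb before the gene and its end (21.7%, against 9.56%), with a median length searched of 8.68 kb.

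Genes with optimal summits more than 500 bp from every TSS of their own were named after their values were seen. Whether these summits lay near a TSS of another gene was not checked. E23 had 3 optimal summits in all, and the highest, 115.4, was not the one at its promoter. With none at a promoter of their own, the nuclear receptor and cofactor genes were Hr4, with 3 summits and a highest signal of 237.6, Hr39 with 138, and the coactivator gene tai with 79.02. The ecdysone-induced genes were crc (138.6), Eip63F-1 (129.3), chinmo (125.6), Eip63E (102.4), ImpL2 (97.58) and crol (96.09), and the cell death gene was Diap1 (161.5). The Eip63F-1 peak was at the edge of the 500 bp limit, since its matches in replicate 5 (58.38) and replicate 1 (66.62) were within 500 bp of a TSS.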

How the data were processed

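The deposited dm6 peak lists (narrowPeak) of Mio-GFP ChIP-seq were used. Per the text files deposited with them, each relaxed list was called on a replicate's or both replicates' alignments and 1 shared control, and these lists gave the optimal list. The sources used here give no aligner, caller, version or threshold. Peak signal and the −log10 q-value are values the authors deposited; the q-value was the same in every optimal peak and was not used to rank them. The dm3 lists were not used.

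No peak ended beyond a reference arm. Summits were assigned to genes of Ensembl release 115 (BDGP 6.54); TSSs of a gene at most 100 bp apart formed 1 promoter. Relaxed and optimal summits within 100 bp were matched. A summit in overlapping genes counted for each. Scripts used Python 3.11.15, pandas 2.3.3, numpy 2.4.6, scipy 1.17.1 and matplotlib 3.10.9 and were tested on simulated peaks.

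With 1 group of 2 replicates no test over samples was possible. Wilson 95% intervals cover counting error over summits only. Genes, gene lists, words and alternatives were chosen with earlier results of these data known. Named genes were the 10 regulators, other genes with a TSS at their optimal summits (none), up to 4 genes per pathway list with an optimal promoter summit, and the 3 genes nearest to Sox14 in both replicates. The symbol phm matched no single gene.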

Additional observations from a re-analysis of the deposited data

How the results depend on the processing

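Among the alternative values of the main counts and shares, 33 stayed within the limits set (a count within 1.5 times, a share within its interval) and 10 moved. Within the 573 strongest optimal peaks, 1 regulator and 1 promoter (Sox14) kept a promoter summit, and 3 regulators (Sox14, Eip75B and Eip78C) had 3 summits in all. With a TSS distance of 200 bp or a TSS inside the whole peak, 1 regulator and 1 promoter were counted, in each case at Eip75B. With the strongest peaks of a single replicate, the counts of regulators and of promoters with a promoter summit were 3 to 3, regulators with a summit 6 to 6, and summits 11 to 14. These equal counts hide a change of genes: without replicate 5, Eip74EF had 0 summits and ftz-f1 had 1, and without replicate 1, br had 2. Counting only the gene body left Sox14 with 0. With 5 kb searched before each gene, Eip74EF had 4 summits and the regulators 13 in all. Matching within 50 and 250 bp gave 10 and 12 of the 12 summits in both replicates. GAGAG was at 50% of the regulators' summits within 100 bp, and other CANNTG words at 8.33% within 25 bp. Both shares moved out of the regulators' Wilson intervals for 50 bp, 4.7 to 44.8% for GAGAG and 8.89 to 53.2% for other CANNTG. Over all nuclear optimal summits the shares in these wider and narrower windows were 29.8% and 19%. Those 2 values lay within the regulators' intervals for the same windows, 25.4 to 74.6% and 1.49 to 35.4%. No paired analysis was possible because there is only 1 group. Depth per library is unknown, both replicates share a control, and without a second condition no change can be measured.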
